A study of Stylosanthes guianensis with 9 samples.

Results

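The genes described here were lower in stylo roots 1 day after germination than in every library of the later days used to choose them, with similar mean levels on both of those days. They numbered 61 of the 54199 genes in the deposited table. Stylo (Stylosanthes guianensis) is a tropical pasture legume, and the material was root of the genotype Reyan No. 2, named as root tips in the series description. Roots were sampled 24, 48 or 72 h from germination, with 3 replicate libraries per time. No treatment was stated for any group, and all groups shared the genotype and the tissue. The members were chosen by measured values, in RPKM (read numbers divided by gene length and library size). The lowest of the 48 h and 72 h libraries had to reach 5 RPKM and 2 times the highest 24 h library, and the mean at 72 h had to lie above 0.67 and below 1.5 times the mean at 48 h. The rule allowed up to 300 genes and was met by 61, which is 0.113% of the table.

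A young root tip holds the root cap, the dividing cells of the meristem and the cells that begin to elongate behind it. During germination the emerging root lives on stored reserves and on RNA kept from the seed, and it then builds the transcripts of a growing organ. The title of the series concerns border-like cells, which separate from the root cap as attached sheets of cells. The IDs in the table have the form of an assembled component and a gene within it, and the table does not pair them with gene names or sequences. Therefore, no function, cell type marker or sequence could be given for any member, and the tissue could not be checked against its markers.

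Because 1 read has a fixed worth in each gene and library, the reads behind the RPKM values could be recovered, together with the length of each gene. The libraries held 28453545 to 37783453 reads. The first and the third 72 h replicate were closer to each other than sampling noise allows, since no gene had fewer reads in replicate 3 and the mean chi-square per gene was 0.0473. They were averaged as replicate 1, which left 2 samples at 72 h, and replicate 3 took no part in the choice of members. Replicate 1 at 24 h and replicate 2 at 72 h listed 24907 and 27888 genes at 0, against 8585 to 12163 in the other libraries.

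By the choice of the members, the step was between 24 h and 48 h. Their median was 4.33, 4.96 and 4.80 RPKM in the 24 h libraries and 27.1, 27.2 and 29.6 RPKM in the 48 h libraries. In the 72 h samples it was 31.03 and 21.99 RPKM. All genes that were tested, those with at least 1 RPKM in at least 3 columns, had medians of 4.94 to 6.32 RPKM in the 8 samples, without such a step. The ratio of the 48 h mean to the 24 h mean ran from 2.40 to 78.9 over the members, with a median of 4.82 and quartiles of 3.53 and 9.30. The ratio of the 72 h mean to the 24 h mean had a median of 5.42. Put the other way, a median member stood at 20.7% of its 48 h level at 24 h, with a range of 1.27% to 41.7%. In bulk RNA, more cells of a type and more RNA per cell cannot be told apart in such a change.

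**Figure D1:**
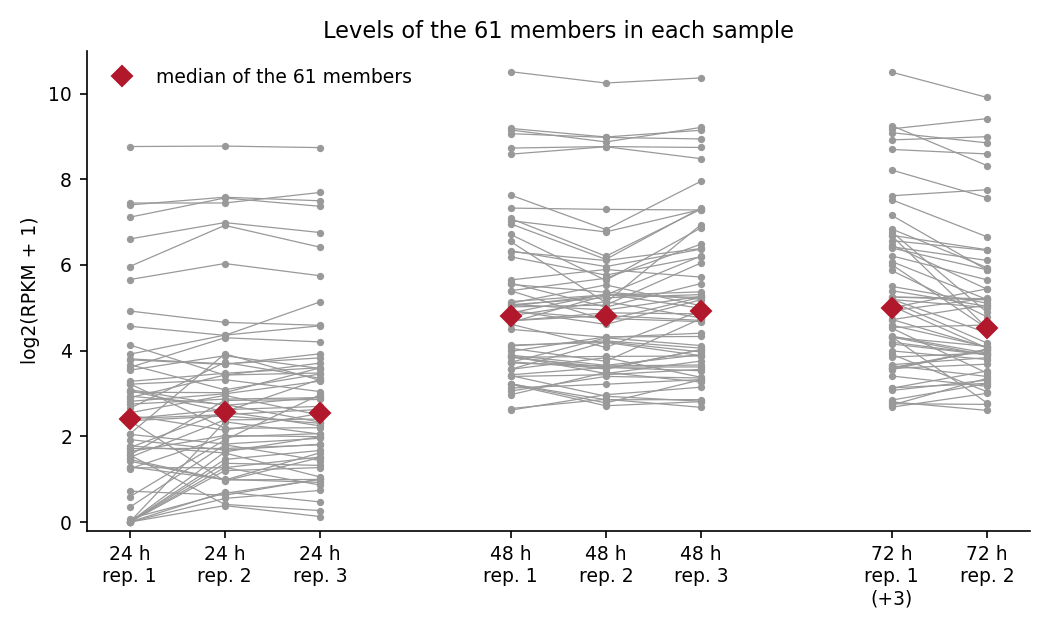
Each grey point is 1 of the 61 members in 1 sample, on the scale of log2(RPKM + 1), and grey lines join a gene within a time only. Red diamonds are the median of the members, which lies between 4.33 and 4.96 RPKM at 24 h and between 21.99 and 31.03 RPKM in the later samples. The 24 h replicate 1 column has 9 genes at 0.

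By limma with Benjamini-Hochberg adjustment over 28428 genes, 61 of 61 members were called higher at 48 h than at 24 h, beside 2.08% of all genes tested. For 72 h against 24 h the count was also 61 of 61, beside 3.88% of all genes. Both contrasts were used to choose the members, so these counts describe the rule and test nothing. On the log2(RPKM + 1) scale the median change of the members was 2.01 for 48 h and 2.12 for 72 h, while the medians of all genes tested were 0.00 and -0.07. The labels do not say that the replicates came from separate sowings, so limma measures only the spread between these samples.

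The size of the rise varied widely. The 48 h mean was under 4 times the 24 h mean in 20 members, 4 to under 8 times in 23, 8 to under 16 times in 8, and at least 16 times in 10. Only 4 members were under 1 RPKM in every 24 h library, and the other 57 were already detectable above that level in at least 1 of them. At 24 h the members' levels ranged from a mean of 0.133 to 432.5 RPKM.

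The largest rise by the ratio of means with 1 RPKM added was found in c23051_g1, which had 0.0563, 0.593 and 0.995 RPKM in the 24 h libraries. It had 41.2, 25.2 and 37.0 RPKM at 48 h and 63.4 and 21.99 RPKM at 72 h. All later samples lay far above the 24 h libraries, but the 72 h samples enclosed the whole range of 48 h. Its 48 h mean was 34.5 ± 8.30 (SD, n = 3) and its 72 h mean 42.7 ± 29.3 (SD, n = 2), so its plateau is a mean of unlike samples. The second, c11931_g1, was at 0, 0.627 and 0.386 RPKM at 24 h. It reached 29.4, 25.9 and 24.6 RPKM at 48 h and 31.99 and 15.7 RPKM at 72 h. Again the 72 h samples lay above and below all 48 h libraries. The log2 changes from 24 h to 48 h were 4.54 (standard error 0.389) for c23051_g1 and 4.39 (standard error 0.297) for c11931_g1, in genes of 1162 and 1498 nucleotides.

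Of the other members that were under 1 RPKM in every 24 h library, one had 0, 0.466 and 0.6695 RPKM at 24 h, 15.6, 12.5 and 25.9 RPKM at 48 h, and 19.0 and 13.9 RPKM at 72 h. The last had the lowest 24 h mean of all members, from 0, 0.305 and 0.0940 RPKM. It was at 9.70, 6.66 and 6.07 RPKM at 48 h and at 7.73 and 10.5 RPKM at 72 h. These 24 h values rested on 0, 6 and 2 reads, against 140 to 212 reads in the later samples, so its 56.1-fold ratio of means is imprecise. In the 4 genes together the ratio of the 48 h mean to the 24 h mean ranged from 47.6 to 78.9.

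At the other end, the member with the highest level was also the highest at 24 h. It had 434, 437 and 426 RPKM at 24 h, then 1459, 1214 and 1319 RPKM at 48 h, and 1448 and 962 RPKM at 72 h. The 24 h libraries were close to each other, and the lowest later sample was more than 2 times any of them, as the rule required. Its mean rose 3.08-fold to 1331 ± 123 RPKM (SD, n = 3), and its rank among all genes changed from 190 at 24 h to 28 at 48 h and 37 at 72 h. This gene alone held 22.7% of the summed 48 h RPKM of the members, and the highest 10 members held 74.3%. Among the 541 genes in the highest 1% of the table, 3 members were found at 24 h, 7 at 48 h and 8 at 72 h.

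**Figure D2:**
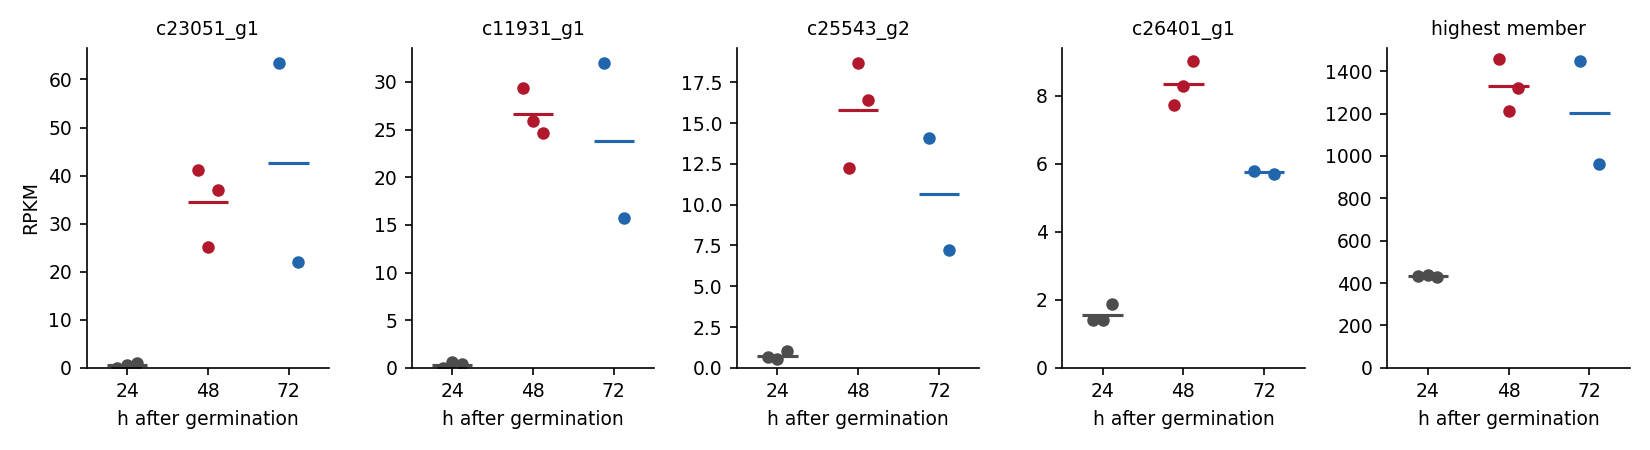
RPKM (linear axis from 0) of the 4 named members and of the member with the highest level against hours after germination. Points are samples, bars are means, with 3 samples at 24 h and at 48 h and 2 at 72 h. In c26401_g1 both 72 h samples (5.78 and 5.71 RPKM) lie below all 48 h libraries, whereas in c23051_g1 they lie on both sides of them.

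Within the members, the abundant class had smaller ratios of the 48 h mean to the 24 h mean. The classes and the ratios rest on the levels that the rule used, so this order describes the members only. How far the rule shaped it was not tested. The 11 members with a 48 h mean of at least 100 RPKM had a median ratio of 3.56 and a median 24 h level of 88.7 RPKM. For the 25 members from 20 to under 100 RPKM the median ratio was 5.12, and for the 25 members under 20 RPKM it was 5.48. The largest ratio in these classes was 17.9, 78.9 and 56.1, respectively. The spread between replicates was also smaller in the abundant class, with a median coefficient of variation of 9.89% at 48 h, compared to 16.4% and 15.2% in the other classes.

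As a share of the recovered reads, the 61 members took 0.135%, 0.154% and 0.151% in the 24 h libraries. The share was 0.598%, 0.511% and 0.620% at 48 h, and 0.654%, 0.492% and 0.653% in 72 h replicates 1, 2 and 3. For 24 h the mean share was 0.146% ± 0.0104 (SD, n = 3). It was 0.576% ± 0.0579 (SD, n = 3) for 48 h, and for 72 h 0.573% ± 0.114 (SD, n = 2). The order of the times in this sum follows from the choice of the members. Replicate 2 was the lowest library at both later times.

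The second step, from 48 h to 72 h, was limited by the rule to a narrow range. The 72 h mean was above the 48 h mean in 31 members and below it in 30, and the ratio had quartiles of 0.906 and 1.18 around a median of 1.002. No member was called different between 72 h and 48 h by limma, beside 0.0% of all genes. With voom weights on the recovered reads 0 members were called as well, beside 0.0352% of all genes. At an unadjusted p under 0.05 by limma there were 4 of the 61 members and 3161 of the 28428 genes tested. Both 72 h samples lay above all 48 h libraries in 9 members (14.8%, beside 15.5% of all genes tested) and below all of them in 7 members (11.5%, beside 14.4%). In the other 45 members the samples of both times overlapped. These shares were near those of all genes.

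The lowest ratios of 72 h to 48 h among the members belonged to c25543_g2 and c26401_g1. The gene c25543_g2 had 0.650, 0.545 and 1.01 RPKM at 24 h, 12.3, 18.7 and 16.4 RPKM at 48 h, and 14.1 and 7.25 RPKM at 72 h. One 72 h sample was within the range of 48 h and the other below it, and the ratio of the means was 0.677. For c26401_g1 the values were 1.41, 1.41 and 1.87 RPKM at 24 h, 7.74, 8.30 and 9.03 RPKM at 48 h, and 5.78 and 5.71 RPKM at 72 h. Here the samples of the 2 times did not overlap, and the ratio was 0.688. The highest ratio, 1.48, came from a gene with 46.8, 31.4 and 46.4 RPKM at 48 h and 73.2 and 49.4 RPKM at 72 h, where both later samples lay above all 48 h libraries. None of these 3 genes was called by limma between 72 h and 48 h.

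For 22 members the plateau held for the mean of 72 h and not for each library. Taken alone, 72 h replicate 1 was inside 0.67 to 1.5 times the 48 h mean in 51 members, at or above it in 8 and at or below it in 2. Replicate 2 alone was inside in 47, at or above 1.5 in 1 and at or below 0.67 in 13. The other 39 members were inside in each library. Replicate 2 was lower than replicate 1 in 42 of 61 members (68.9%), with a median ratio of 0.829, compared to 63.1% and 0.898 over the 11865 tested genes with at least 5 RPKM in all later libraries of the rule. It was under 0.5 times replicate 1 in 10 members (16.4%), beside 6.76% of those genes. Replicate 2 at 72 h is the library with the most genes at 0, and the part this has in the difference was not tested.

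**Figure D3:**
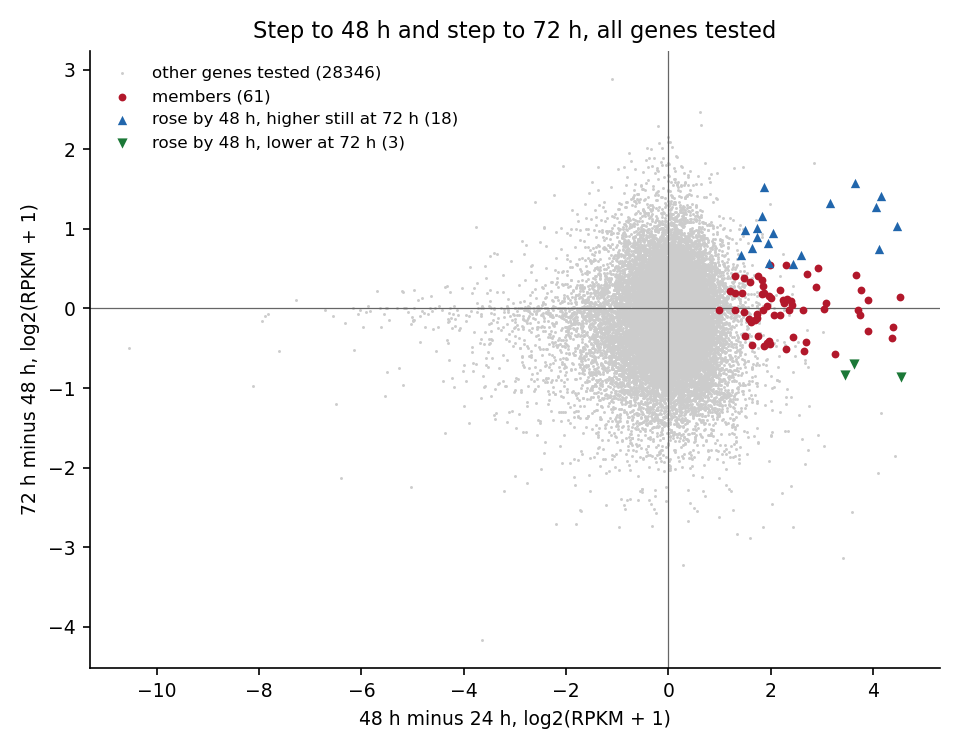
Change from 24 h to 48 h (horizontal) against change from 48 h to 72 h (vertical), both on the log2(RPKM + 1) scale from limma, for 28428 genes. The 61 members (red) form a flat band at the right because the rule set both limits, with 18 genes that were higher still at 72 h above them and 3 that were lower at 72 h below them.

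The level and the 2-fold rise, which both later times had to meet, were met by 82 genes, of which 61 were members, 18 were at least 1.5 times higher at 72 h and 3 were at or below 0.67 times. The 18 genes had a median rise of 6.17-fold to 48 h and a median 48 h level of 12.2 RPKM, while the members had a median 48 h level of 29.2 RPKM. For a fall, the same conditions in mirror image were met by 666 genes, of which 257 were on a plateau, with a median fall of 5.02-fold from a median of 18.7 RPKM. In the mirror image the minimum level applied to the 24 h libraries only, so zeros at 72 h did not block a fall. The counts 666 and 82 are therefore not like for like. Because genes that returned toward the 24 h level by 72 h were left out by the conditions, these counts do not give the frequency of a plateau among all genes that changed. Of the 257 falling genes, 38 were at 0 in 72 h replicate 2, beside 5116 of the 28428 genes tested. The rule for the members did not allow such zeros.

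The median spread between replicates was higher in the members than in the 11865 genes described above. At 24 h the median coefficient of variation was 26.0%, compared to 16.4% in those genes, and at 48 h it was 15.2% compared to 10.7%. The 2 sets were not matched for level at 24 h, where the rule chose members that were low (median 4.79 RPKM). Replicate 1 was the lowest 24 h library in 36 of 61 members, a larger share than the 42.4% of the 11865 genes. It listed 9 of these 36 at 0 (14.8% of the members), beside 0.320% of the 11865 genes, which were not chosen for a change from 24 h. Of all 28428 genes tested, a set not matched to the members for level, 3467 were at 0 in this library. Zeros there thus also occurred outside the members. In those 9 members replicates 2 and 3 held 6 to 212 and 2 to 178 reads, while 0 reads in replicate 1 allows up to 0.0600 to 0.195 RPKM, as 3 reads would give. The limit covers counting error only. Without this library the median rise of the 9 genes was 8.41-fold in place of 12.6-fold, and over all members it was 4.75-fold in place of 4.82-fold. The rule fixes a rise of at least 2-fold for any 24 h library left out, so these values describe its size only.

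At 48 h, replicate 2 was the lowest library in 28 members, replicate 1 in 22 and replicate 3 in 11. Over all genes tested, replicate 2 also had the lowest 48 h median, 5.13 RPKM, beside 5.46 RPKM in replicate 1 and 6.05 RPKM in replicate 3. The member with the third largest rise, by the ratio with 1 RPKM added, was the lowest in replicate 2 at 48 h relative to the other libraries, with 92.6, 33.8 and 122 RPKM at 48 h and 109 and 28.8 RPKM at 72 h, from 0.503, 2.78 and 6.86 RPKM at 24 h. It was low in replicate 2 at both later times, with differences of -1.62 and -1.88 on the log2(RPKM + 1) scale. Replicate 2 was lower at both times in 27 members (44.3%), near the 47.9% of the 11865 genes. Across the 61 members Pearson's r between the replicate 2 differences at 48 h and at 72 h was 0.38 and Spearman's rho 0.27, and across the 11865 genes they were 0.26 and 0.24. All genes share the same libraries and are not independent replicates, and the labels do not say that equal replicate numbers mark a shared sowing or batch.

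**Figure D4:**
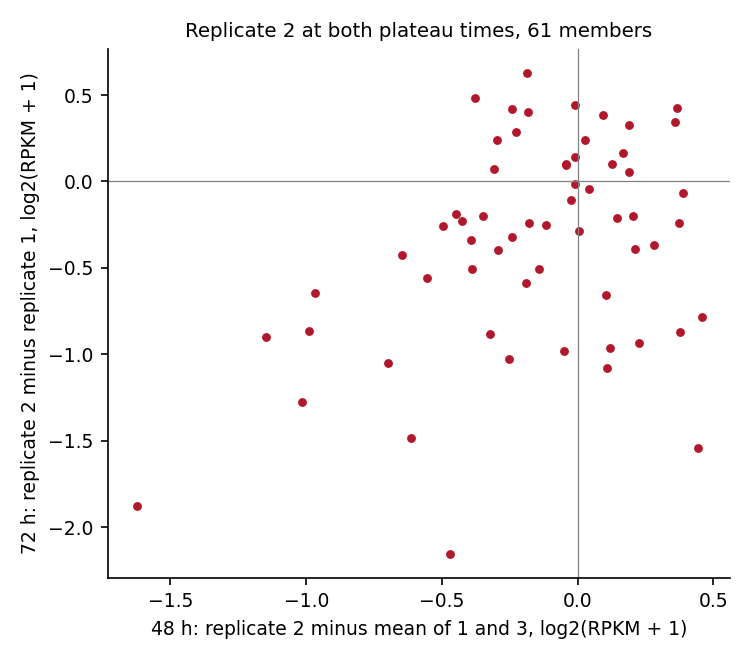
Replicate 2 minus the mean of replicates 1 and 3 at 48 h (horizontal) and replicate 2 minus replicate 1 at 72 h (vertical), log2(RPKM + 1), 1 point per member. The lower left holds members low in replicate 2 at both times, 27 of 61 (44.3%, beside 47.9% of the 11865 genes), and the upper right holds 8 (13.1%, beside 14.6%).

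Length and component were not used by the rule. The members had a median length of 1205 nucleotides (quartiles 728 and 1493), compared to 1172 over all tested genes and 1611 (quartiles 1003 and 2320) over the 11865 genes with at least 5 RPKM in all later libraries. Long genes were few, as 4 members (6.56%) reached 2000 nucleotides, beside 35.0% of those genes. Only 1 member (1.64%) was under 500 nucleotides, beside 7.73%. Lengths were the smallest at which all values became whole reads, so few reads can give too short a length. The lowest was 25 nucleotides over all tested genes, while each member held at least 730 reads over the 9 libraries. The assembled genes may also be partial. In 30 members (49.2%) the gene was the only one in its component, compared to 35.4% of the 11865 genes.

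The 61 members came from 56 components, and 4 components held 2 or more of them, 9 members in all. One component held 3 members of 1223, 1206 and 1039 nucleotides. The first of them had 7.54, 5.61 and 6.52 RPKM at 24 h, 124, 69.1 and 159.8 RPKM at 48 h, and 142 and 58.1 RPKM at 72 h. The second had 12.8, 11.8 and 14.2 RPKM, then 197, 113 and 247 RPKM, then 297 and 189 RPKM. The third had 13.03, 11.9 and 13.2 RPKM, then 104, 48.9 and 116 RPKM, then 114 and 60.4 RPKM. All 3 followed the same order over the libraries of 48 h, with replicate 3 highest and replicate 2 lowest, and all were lower in replicate 2 at 72 h. Their rises to the 48 h mean were 17.9-fold, 14.3-fold and 7.03-fold. Genes of 1 component may share sequence, and how the counting divided such reads was not given in the sources used here, so these 3 profiles are not independent.

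In another component, members of 774 and 1275 nucleotides rose 4.70-fold and 3.32-fold, to 48 h means of 74.2 and 542 RPKM. The members of the remaining 2 shared components were short, at 504 and 283 nucleotides in one and 700 and 677 nucleotides in the other. They rose 20.2-fold and 12.1-fold in the former and 6.02-fold and 5.83-fold in the latter.

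The components of the members held 67 further genes, of which 44 were tested. From 24 h to 48 h the log2 change was above 0 in 28 of them (63.6%), compared to 50.4% of all tested genes. Limma called 6 of the 44 higher (13.6%, beside 2.08% of all genes) and 2 lower (4.55%, beside 5.53%). These genes may share sequence with members chosen for this rise, so their shares are not independent of that choice. The highest of the 6 at 24 h had 144, 206 and 151 RPKM at 24 h, 465, 462 and 398 RPKM at 48 h, and 398 and 499 RPKM at 72 h, so that its lowest later sample was less than 2 times its highest 24 h library. Another had 2.65, 3.60 and 2.70 RPKM at 24 h and 58.6, 67.3 and 79.7 RPKM at 48 h, and it went on to 196 RPKM in one 72 h sample while the other stayed at 66.7 RPKM. The other 4 had 3.26 to 6.66 RPKM in 72 h replicate 2, compared to 11.04 to 23.6 RPKM in replicate 1.

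The limits of the rule passed through a continuous range of values. In 8 members the lowest later library was under 2.1 times the highest 24 h library, and in 33 it was under 3 times. The member nearest to the 2-fold limit had a factor of 2.00, and the nearest gene outside had 1.99, with 24 h and 48 h means of 102 and 259 RPKM. At the 5 RPKM limit the lowest library was 5.09 RPKM in the nearest member and 4.75 RPKM in the nearest gene outside. For 72 h over 48 h the nearest values inside were 0.680 and 1.48, and outside they were 0.636 and 1.52. A minimum of 1 RPKM gave 106 genes and a minimum rise of 3-fold gave 28. Without 24 h replicate 2 the rule was met by 92 genes, which included all 61 members, and without 72 h replicate 2 by 94 genes, which included 51 of them. After quantile normalization, 85 genes passed, 60 of them members.

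**Figure D5:**
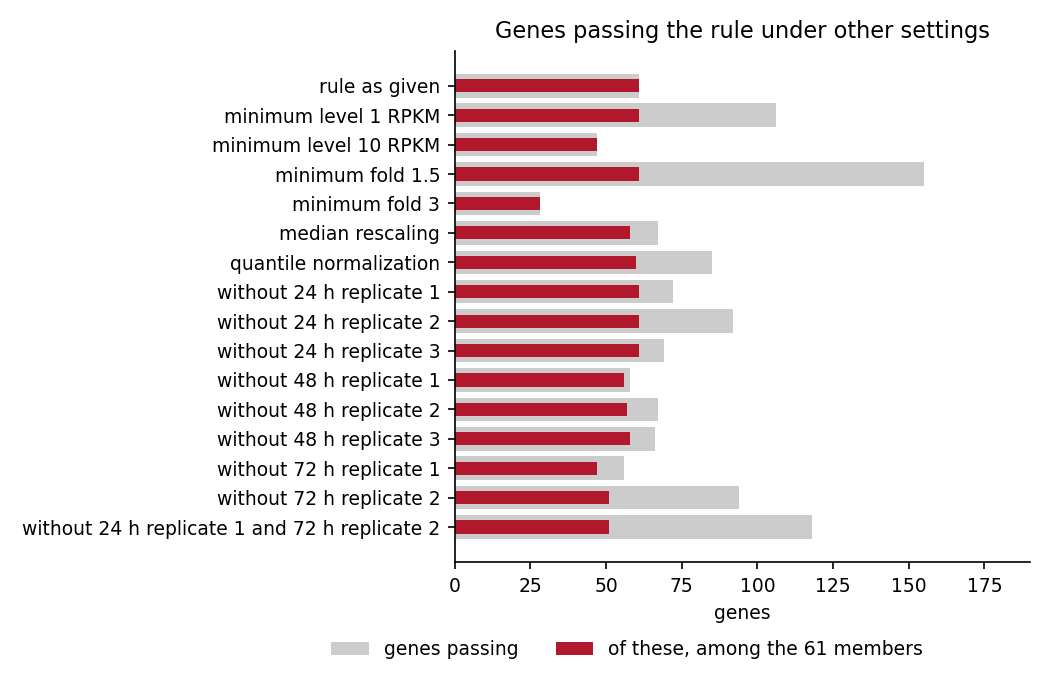
Number of genes (horizontal, from 0) that met the rule as given and under other limits, other scaling or without 1 or 2 libraries. Grey bars are all genes passing and red bars are those among the 61 members, for example 94 and 51 without 72 h replicate 2.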

How the data were processed

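RNA of 9 root libraries was made into sequencing libraries with a BGI kit, per the labels. The authors deposited RPKM values for 54199 genes, 1 column per library, with HTSeq 0.6.0 listed in the submitters' processing notes. Which aligner and assembly they used is not given in the sources used here. For each gene, lengths up to 100000 nucleotides were tried, and the smallest was kept that turned its 9 values into whole reads within 0.0001. These reads made up 99.8% to 99.9% of each library total. The 3 times entered 1 fit of 8 samples on log2(RPKM + 1), by limma 3.58.1 (R 4.3.3), with a trend on intensity and without a replicate block, for 28428 genes with at least 1 RPKM in at least 3 columns. Fold changes on this scale understate the change of low genes. Genes with an adjusted p under 0.05 were called. The recovery and the fit were tested on simulated data. Members and lists were chosen with earlier results of these data known. At most 2 members with the largest rise and 2 with the lowest ratio of 72 h to 48 h were named, and others were described by their place. Alternatives comprised 22 settings of the fit and 17 of the rule. Tables and figures were made with Python 3.11.15.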

Additional observations from a re-analysis of the deposited data

How the results depend on the processing

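The number of genes meeting the rule was 61. It was 106 with a minimum level of 1 RPKM, 155 with a minimum rise of 1.5-fold and 28 with 3-fold. With any single library left out it was 56 to 94 genes, with 92 without 24 h replicate 2 and 94 without 72 h replicate 2, where fewer samples had to pass. Without both 24 h replicate 1 and 72 h replicate 2, a setting chosen after seeing the data, it was 118. The other settings gave 47 to 85. Members took 0.146%, 0.576% and 0.573% of the reads at 24, 48 and 72 h, and 0.225%, 0.888% and 0.899% of the summed RPKM, a unit that weights short genes more. Of the 61 members, those called higher at 48 h than at 24 h numbered 53 to 61 over the settings of the fit, and at 72 h against 24 h 50 to 61. The shares of all genes called higher were 0.735% to 3.64% and 0.985% to 7.09%, respectively. Both contrasts were used to choose the members, so the member counts describe the rule. The lowest member counts came from a pseudocount of 0.01 (53) and from only the 2 times compared (50). Leaving out each library gave 55 to 61 and 59 to 61 in the fits that kept at least 2 samples at 72 h. The rule limited the step from 48 h to 72 h. There, fits with at least 2 samples at 72 h called 0 members, beside 0.0% to 0.137% of all genes. Without 72 h replicates 1 and 3, a setting chosen after seeing the data, 12.3% of all genes were called there, 621 higher and 2875 lower. Without 72 h replicate 2, the lone 72 h sample was assumed to vary like the other times. Samples of equal number had deviations with correlations of -0.05 to 0.22, and samples of unlike number had -0.25 to 0.14. These ranges overlap and do not settle whether the samples were paired. The labels state no pairing, so the numbers were not taken to pair the samples. With the replicate block, 60 members were called higher at 48 h and 60 at 72 h than at 24 h, beside 2.4% and 4.24% of all genes. Between 72 h and 48 h it called 0 members, beside 0.0% of all genes. Low reads limit the 24 h values of the members with the fewest reads. Over members and 24 h libraries the reads had a lowest value of 0, a lower quartile of 51.5 and a median of 205.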

Other observations

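Without 72 h replicate 2, 43 genes that were no members met the rule. In that library 17 of them were under 5 RPKM, and 0 were listed at 0.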
